A study of Mus musculus with 12 samples.

Results

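The genes described here are 8 genes best known from nerve cells: Nrep, Dpysl3, Basp1, Nrgn, Uchl1, Ninj1, Nradd and Ddc. They were chosen by name, through the GENCODE M21 symbol of each Ensembl ID, and make up 8 of the 43432 genes in the deposited count table. Of the 8, 7 had enough reads to be tested and 1, Uchl1, did not. Their levels were followed in 12 bulk RNA-seq libraries, 3 from each of 4 sorted populations of mouse epithelial cells.

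The 4 groups came from Flare25 mice, which carry a red fluorescent reporter at the gene for interleukin-25 (IL-25), and this allele was shared by all groups. The groups were gallbladder IL-25+ cells, gallbladder IL-25- cells, proximal small intestine IL-25+ cells and proximal small intestine IL-25- cells, and their libraries are called GB-pos, GB-neg, SI-pos and SI-neg 1 to 3. Live single cells positive for the epithelial protein EpCAM were sorted with or without reporter fluorescence after release with EDTA and DTT. In the labels the gallbladder mice had received HDM AF647 1 day before collection, whereas no such entry stands for the small intestine and the protocol text of all 12 libraries speaks of homeostasis. The tissue and that entry therefore cannot be told apart in any gallbladder against small intestine comparison. The labels give no age or sex and do not say whether a group's 3 libraries are 3 mice, and the p-values reflect only how these libraries vary.

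Tuft cells are chemosensory epithelial cells that make IL-25, and in the gut epithelium the IL-25 reporter marks them. Single-cell surveys of the mouse small intestine described a neuronal-type and an immune-type tuft cell state, and several of the genes followed here were listed for the neuronal type. In neurons these genes serve outgrowth and signalling. Growth cones, the moving tips of axons, rely on membrane proteins such as Basp1 and on microtubule partners such as Dpysl3 (CRMP4), and dendrites use neurogranin (Nrgn) to hold calmodulin, the calcium sensor. Ddc is the enzyme that makes serotonin and dopamine from their amino acid precursors, in neurons and in enteroendocrine cells, the hormone-secreting cells of the gut.

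Library totals ran between 23703449 and 64736650 reads on genes. Levels are given as counts-per-million values (CPM), taken over the scaled library size. The 12 tuft cell markers summed to 18012 to 20143 CPM in GB-pos, against 38.1 to 175 CPM in GB-neg, and to 31859 to 39401 CPM in SI-pos, against 82.2 to 220 CPM in SI-neg. All 12 were higher in IL-25+ than in IL-25- cells in both tissues. The 5 epithelial markers summed to 4938 to 5600 CPM in GB-pos and 2701 to 3911 CPM in GB-neg, and to 13516 to 17642 CPM in SI-pos and 2981 to 3143 CPM in SI-neg. Stromal markers summed to no more than 8.59 CPM in any library. Reads on mitochondrially encoded genes made up 7.13 to 8.83% in GB-pos and 11.2 to 25% in GB-neg, and 12.1 to 17.2% in SI-pos and 26.6 to 34.9% in SI-neg. Transcripts of the other tissue were looked at in 2 libraries. GB-neg 1 held small amounts of intestinal transcripts, with 45 genes at a median of 4.34% of their mean in SI-neg 1 and 2. SI-neg 3 held gallbladder transcripts, with 32 genes at a median of 1.41% of their mean in GB-neg 2 and 3. These genes were picked for at least 20 CPM in the 2 source libraries and at most 0.2 CPM in the 5 other libraries of the receiving tissue. Their medians in those 5 libraries, at most 0.0951% and 0.0803%, were therefore low by choice and test nothing. Results that these 2 libraries moved are given with and without them.

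The promoters of Nrep and Dpysl3 are not reported here. Counts per gene do not show where transcripts start, so annotated starts were used. The promoters of 4 other members that differed between the gates in the small intestine or in both tissues are shown. Each runs over 300 bases, from 250 before to 50 after the annotated start (RefSeq, GRCm38.p6), and is printed 5′ to 3′ on the gene's own strand in lower case, with capitals marking a match to the octamer core ATGCAAA, or TTTGCAT on the other strand. The octamer is the site of POU factors, the family of the tuft cell regulator Pou2f3. The windows are chr9:37552696-37552995 for Nrgn, chr15:25413715-25414014 for Basp1, chr9:110624344-110624643 for Nradd, and chr11:11898095-11898394 and chr11:11890359-11890658 for the 2 starts of Ddc, all on the minus strand.
Nrgn: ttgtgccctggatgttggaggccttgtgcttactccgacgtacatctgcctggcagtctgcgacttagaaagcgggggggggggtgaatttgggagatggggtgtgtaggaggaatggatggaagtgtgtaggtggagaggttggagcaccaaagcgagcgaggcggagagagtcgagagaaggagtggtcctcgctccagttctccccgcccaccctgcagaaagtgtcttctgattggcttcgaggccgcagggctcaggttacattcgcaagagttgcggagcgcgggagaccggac
Basp1: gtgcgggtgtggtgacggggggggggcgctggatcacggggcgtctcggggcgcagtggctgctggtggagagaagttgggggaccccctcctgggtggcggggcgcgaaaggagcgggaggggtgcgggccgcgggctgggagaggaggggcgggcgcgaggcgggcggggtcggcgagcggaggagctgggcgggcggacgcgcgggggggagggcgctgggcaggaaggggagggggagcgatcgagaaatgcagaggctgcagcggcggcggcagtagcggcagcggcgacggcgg
Nradd: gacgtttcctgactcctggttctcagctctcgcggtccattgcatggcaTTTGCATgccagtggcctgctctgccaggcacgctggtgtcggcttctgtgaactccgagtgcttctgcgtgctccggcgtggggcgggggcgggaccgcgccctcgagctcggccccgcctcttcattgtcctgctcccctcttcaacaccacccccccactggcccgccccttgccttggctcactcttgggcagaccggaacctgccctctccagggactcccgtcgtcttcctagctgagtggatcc
Ddc, upstream start: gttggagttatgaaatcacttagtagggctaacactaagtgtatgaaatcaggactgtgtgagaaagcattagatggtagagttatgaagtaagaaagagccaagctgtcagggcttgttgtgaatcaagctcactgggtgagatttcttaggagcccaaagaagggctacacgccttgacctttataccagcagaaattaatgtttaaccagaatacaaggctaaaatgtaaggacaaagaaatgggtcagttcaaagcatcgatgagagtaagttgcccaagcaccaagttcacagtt
Ddc, downstream start: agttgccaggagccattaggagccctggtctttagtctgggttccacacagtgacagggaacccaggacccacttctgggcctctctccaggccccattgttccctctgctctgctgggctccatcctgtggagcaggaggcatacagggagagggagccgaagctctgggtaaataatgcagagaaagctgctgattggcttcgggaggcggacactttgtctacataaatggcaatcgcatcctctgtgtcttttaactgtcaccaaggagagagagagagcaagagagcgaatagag

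The octamer core was found, on either strand, in Nradd only among the 6 members whose promoter was measured, 201 bases before its start, and in 4.63% of all 32851 promoters of that length. The left and right arms of the RE1 element, the site of the neuronal repressor REST, were searched on both strands as CAGCACC and GGACAGC. They stand in 7.14% and 6.56% of all promoters, and neither was found in the 6 members whose promoter was measured, which says only that these letters are not in these windows. The Basp1 window was 78.0% G and C and held 38 CpG pairs, more than 95% of promoters. The upstream Ddc window was 41.3% G and C and held 2 CpG pairs, more than 14.1% of promoters. The Nrgn window was 59.3% G and C. Nrgn held 17 CpG pairs and Nradd held 20, against a median of 7 over all promoters. The 2 members with the highest IL-25+ levels in small intestine, Nrgn and Basp1, thus differed in the base composition of their promoters.

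**Figure D1:**
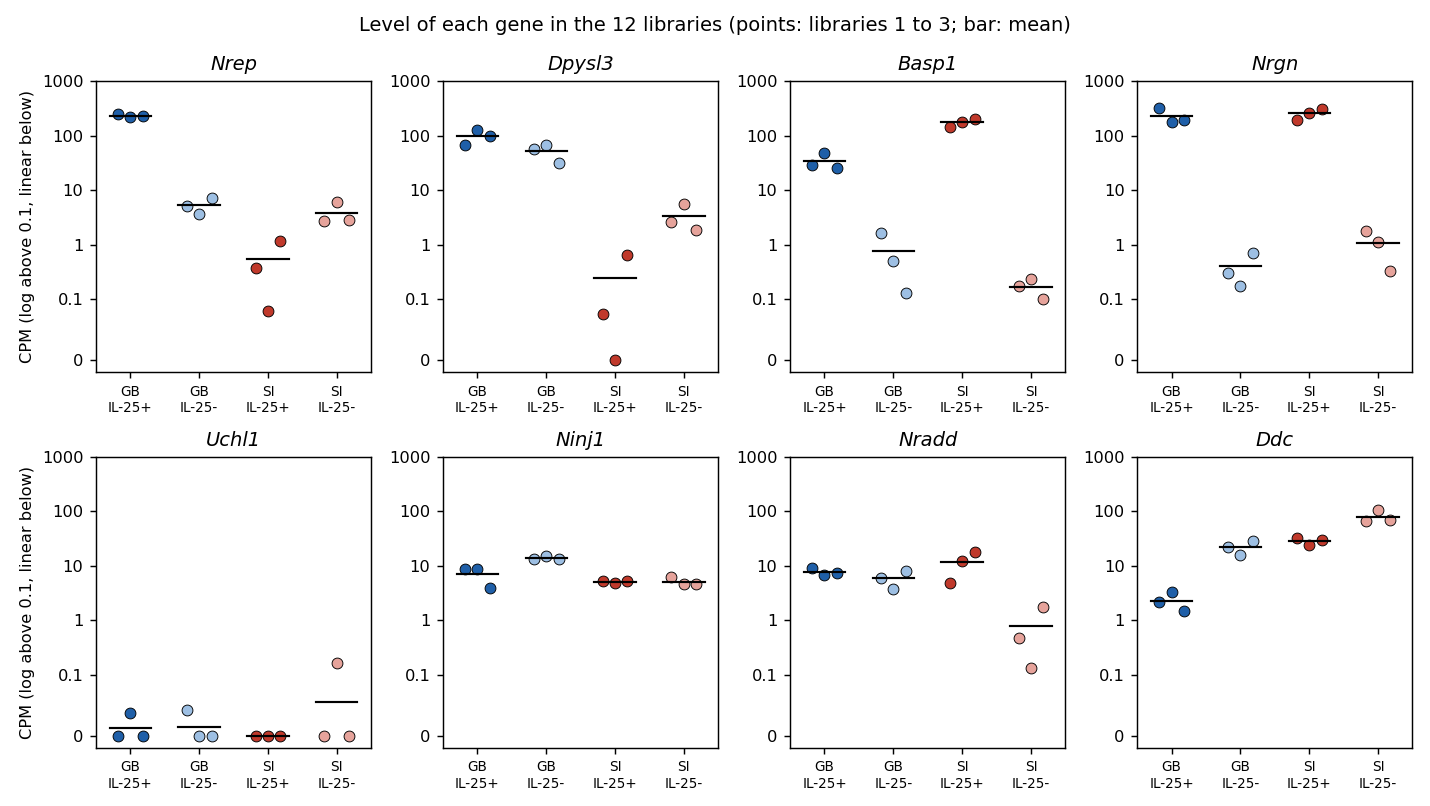
Level of each of the 8 genes in CPM, on an axis that is linear near 0 and logarithmic above, in the 12 libraries. Each point is a library and each bar a group mean, with gallbladder IL-25+, gallbladder IL-25-, small intestine IL-25+ and small intestine IL-25- from left to right. Nrep reached 220 to 246 CPM in gallbladder IL-25+ cells only, whereas Nrgn was above 176 CPM in the IL-25+ cells of both tissues and at most 1.75 CPM in the IL-25- cells.

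Nrep and Dpysl3 had unlike gate differences in the 2 tissues. Nrep was higher in gallbladder IL-25+ cells than in any other group and was lower in small intestine IL-25+ cells than in small intestine IL-25- cells. Dpysl3 was at 31.9 CPM or more in every gallbladder library and near the detection limit in small intestine IL-25+ cells. For both genes the gate difference itself differed between the tissues.

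Nrep (ENSMUSG00000042834, chromosome 18, 33437019 to 33464029 on the minus strand, GRCm38) encodes P311, a small intracellular protein found in regenerating neurons and in wound myofibroblasts. It lay at 246, 220 and 229 CPM in GB-pos 1 to 3, against 5.22, 3.60 and 7.11 CPM in GB-neg 1 to 3. In the small intestine it lay at 0.377, 0.0802 and 1.18 CPM in SI-pos 1 to 3, against 2.73, 6.14 and 2.79 CPM in SI-neg 1 to 3. All gallbladder IL-25+ libraries were thus far above all others, and the small intestine IL-25+ libraries were below every IL-25- library of either tissue. The log2 difference between IL-25+ and IL-25- cells was 5.45 ± 0.62 (SE) in gallbladder (adjusted p = 4.34e-05) and -2.83 ± 0.61 in small intestine (adjusted p = 0.00442). In SI-pos the gene rested on 10, 2 and 29 reads, and without SI-pos 3 its small intestine difference was -4.04. These and all later differences are log2 values from 1 edgeR quasi-likelihood fit over the 12 libraries and 16636 genes, with Benjamini-Hochberg adjustment and a threshold of 0.05.

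Dpysl3 (ENSMUSG00000024501, chromosome 18, 43320984 to 43438286, minus strand) encodes collapsin response mediator protein 4, which binds tubulin and actin filaments in growth cones. It lay at 68.0, 124 and 96.9 CPM in GB-pos, against 57.0, 66.2 and 31.9 CPM in GB-neg. Small intestine levels were 0.0755, 0 and 0.649 CPM in SI-pos, against 2.64, 5.54 and 1.88 CPM in SI-neg. The SI-pos values rested on 2, 0 and 16 reads, and the library at 0 allows up to 0.120 CPM. In gallbladder the lowest GB-pos library (68.0 CPM) stood just above the highest GB-neg library (66.2 CPM), and the log2 difference of 0.90 ± 0.64 did not pass the test (adjusted p = 0.330). In small intestine Dpysl3 was lower in IL-25+ cells by a log2 difference of -3.79 ± 0.82 (adjusted p = 0.00482), and by -6.31 without SI-pos 3.

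Markers of another cell type moved with both genes in the small intestine. The 16 enteroendocrine markers summed to 71.0 to 303 CPM in SI-pos, against 7168 to 16575 CPM in SI-neg, with the highest sum in SI-neg 2, the library in which Nrep and Dpysl3 were also highest among SI-neg. None of the 16 was higher and 11 were lower in SI-pos. In gallbladder the same markers summed to 16.4 to 27.9 CPM in GB-pos, against 440, 8.27 and 5.36 CPM in GB-neg 1 to 3, and none of the 16 was called there at an adjusted p under 0.05. Scgn and Fev, an endocrine calcium-binding protein and a serotonin-lineage factor, had no read in GB-pos. The part of these markers in the results was not tested. In bulk RNA of this kind, fewer cells of a type and less RNA per cell cannot be told apart.

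Basp1 and Nrgn were higher in IL-25+ cells in both tissues, and in the small intestine theirs were the largest log2 differences of the 7 tested genes. The levels of Nrgn in IL-25+ cells overlapped between the tissues, whereas those of Basp1 were lower in gallbladder. IL-25- cells held little of either transcript.

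Basp1 (ENSMUSG00000045763, chromosome 15, 25363277 to 25413764, minus strand) encodes a lipid-anchored protein of the growth cone membrane that binds calmodulin and phosphoinositides. It lay at 29.5, 48.5 and 25.7 CPM in GB-pos, against 1.67, 0.502 and 0.130 CPM in GB-neg. Small intestine levels were 144, 178 and 203 CPM in SI-pos, against 0.178, 0.234 and 0.102 CPM in SI-neg. Neither tissue showed any overlap, and the lowest SI-pos value was above the highest GB-pos value. The log2 difference between the gates was 5.40 ± 0.66 in gallbladder (adjusted p = 7.72e-05) and 10 ± 0.83 in small intestine (adjusted p = 3.75e-06). GB-neg 1, the library with the largest total, held 119 of the 140 Basp1 reads of its group, and without it the gallbladder difference was 6.72. Its tuft marker sum was 175 CPM, against 61.7 and 38.1 CPM in GB-neg 2 and 3. The part of tuft cell transcripts in its Basp1 level was not tested.

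Nrgn (ENSMUSG00000053310, chromosome 9, 37544492 to 37552904, minus strand) encodes neurogranin, which binds calmodulin when calcium is low and releases it when calcium enters. It lay at 314, 176 and 191 CPM in GB-pos, against 0.309, 0.177 and 0.714 CPM in GB-neg. In the small intestine it lay at 195, 258 and 310 CPM in SI-pos, against 1.75, 1.10 and 0.330 CPM in SI-neg. IL-25+ libraries of the 2 tissues overlapped, as did the IL-25- libraries, and every IL-25+ library exceeded every IL-25- library. The log2 difference was 9.18 ± 0.69 in gallbladder (adjusted p = 2.20e-06), 9.77 without GB-neg 3, and 7.91 ± 0.64 in small intestine (adjusted p = 3.91e-06).

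Nradd, Ninj1 and Uchl1 are tied to neurotrophin signalling, nerve injury and protein turnover in neurons. They showed smaller gate differences than Basp1 and Nrgn or could not be tested. Nradd was higher in IL-25+ cells of the small intestine, where its IL-25- level was lowest. Ninj1 was most abundant in gallbladder IL-25- cells, and Uchl1 was at or near 0 in all 12 libraries.

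Nradd (ENSMUSG00000032491, chromosome 9, 110621135 to 110624452, minus strand) encodes a death domain protein related to the neurotrophin receptor Ngfr. It lay at 9.03, 6.83 and 7.48 CPM in GB-pos, against 6.06, 3.72 and 7.89 CPM in GB-neg, and these libraries overlapped. Small intestine levels were 4.75, 12.3 and 18 CPM in SI-pos, against 0.475, 0.134 and 1.78 CPM in SI-neg, without overlap. The log2 difference was 0.40 ± 0.75 in gallbladder (adjusted p = 0.735) and 3.86 ± 0.85 in small intestine (adjusted p = 0.00457). SI-neg 3 had the highest Nradd level of its group, and without it the small intestine difference was 5.23. The part of the gallbladder transcripts of SI-neg 3 in this level was not tested.

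Ninj1 (ENSMUSG00000037966, chromosome 13, 49187485 to 49196244, plus strand) encodes ninjurin 1, a surface protein induced by nerve injury that also ruptures the membrane of dying cells. It lay at 8.68, 8.72 and 3.85 CPM in GB-pos, against 13.1, 15.2 and 13.1 CPM in GB-neg. In the small intestine it lay at 5.24, 4.81 and 5.27 CPM in SI-pos, against 6.14, 4.61 and 4.67 CPM in SI-neg. The gallbladder groups did not overlap, but the log2 difference of -0.96 ± 0.44 did not pass the test (adjusted p = 0.126), although it did under limma-voom (-1.10, adjusted p = 0.0493). In small intestine it was -0.01 ± 0.44 (adjusted p = 0.994).

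Uchl1 (ENSMUSG00000029223, chromosome 5, 66676091 to 66687234, plus strand) encodes a ubiquitin hydrolase that is abundant in neurons and endocrine cells. It had 1 read in GB-pos 2 and none in GB-pos 1 and 3, against 3 reads in GB-neg 1 and none in GB-neg 2 and 3. SI-pos had no read in any library, against 5 reads in SI-neg 2 and none in SI-neg 1 and 3. A count of 0 allows up to 3 reads, which is 0.0762 to 0.122 CPM over the libraries with no Uchl1 read. The gene shares 295 exon bases with its antisense gene Uchl1os, and because the library kit does not mark strand, reads there cannot be told apart.

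Ddc (ENSMUSG00000020182, chromosome 11, 11814101 to 11898144, minus strand), the aromatic amino acid decarboxylase, ran the other way and was lower in IL-25+ cells of both tissues. It lay at 2.18, 3.27 and 1.48 CPM in GB-pos, against 22.2, 16.1 and 28.1 CPM in GB-neg. In the small intestine it lay at 32.6, 24.1 and 29.6 CPM in SI-pos, against 65.7, 106 and 68.3 CPM in SI-neg. The groups did not overlap in either tissue, and the SI-pos and GB-neg libraries overlapped. The log2 difference was -3.26 ± 0.36 in gallbladder (adjusted p = 2.53e-05) and -1.48 ± 0.33 in small intestine (adjusted p = 0.00533). The enterocyte marker sum was lower as well, at 4483 to 6616 CPM in SI-pos, against 15364 to 23956 CPM in SI-neg, although none of the 11 markers was called, and the enteroendocrine sum given above was lower too. Their part in the Ddc result was not tested. In gallbladder the enterocyte sum was 19.7 to 41.1 CPM in GB-pos, against 941, 41.9 and 39.6 CPM in GB-neg 1 to 3, while Ddc stood at 22.2, 16.1 and 28.1 CPM in those 3 GB-neg libraries. The 7 gallbladder epithelium markers moved in the direction of Ddc, summing to 1627 to 2084 CPM in GB-pos, against 5498 to 6183 CPM in GB-neg, and 5 of the 7 were called lower and 1 higher in GB-pos (median log2 difference -3.11). In small intestine they summed to 1121 to 1340 CPM in SI-pos, against 1027 to 1238 CPM in SI-neg, with 4 called lower and 1 higher. The part of these markers in the gate differences of Ddc and the other genes was not tested.

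Counted over the 7 tested genes, 3 were higher and 1 was lower in gallbladder IL-25+ than in gallbladder IL-25- cells, where 26.8% of all tested genes were called in either direction, 12.4% higher and 14.4% lower. In the small intestine 3 were higher and 3 were lower in IL-25+ cells, where 27.2% of all tested genes were called, 14.5% higher and 12.8% lower. Read by overlap alone, the gallbladder groups were apart for 4 genes with IL-25+ higher and 2 with IL-25+ lower, as they were for 17.8% and 23.4% of all tested genes, and the small intestine groups for 3 and 3, against 24.9% and 24.4% of all tested genes. The median log2 difference of the 7 was 0.90 in gallbladder and -0.01 in small intestine, against -0.15 and -0.07 over all tested genes.

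**Figure D2:**
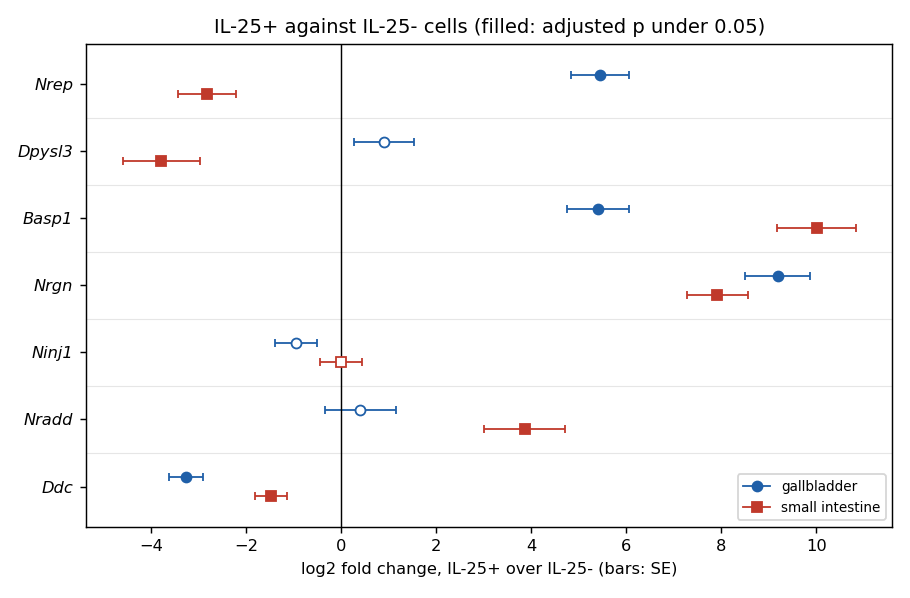
Log2 difference between IL-25+ and IL-25- cells for the 7 tested genes, with gallbladder as circles and small intestine as squares, bars for 1 SE, and filled symbols for an adjusted p under 0.05. Nrgn and Basp1 lie right of 0 in both tissues, Ddc lies left of 0 in both, and Nrep lies at 5.45 in gallbladder and -2.83 in small intestine.

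Between the tissues, IL-25+ cells differed in 4 of the 7 genes. Nrep was higher in gallbladder IL-25+ than in small intestine IL-25+ cells by 8.73 ± 0.73 (adjusted p = 8.32e-06) and Dpysl3 by 8.64 ± 0.93 (adjusted p = 5.38e-05), values that were 9.95 and 11.16 without SI-pos 3. Basp1 was lower by -2.34 ± 0.56 (adjusted p = 0.00970) and Ddc by -3.64 ± 0.37 (adjusted p = 1.94e-05). Over all tested genes 23.7% were called in this comparison, 10.5% higher and 13.1% lower in gallbladder. The libraries of the 2 tissues were apart for those same 4 genes, 2 in each direction, against 17.3% of all tested genes with gallbladder higher and 24.5% with gallbladder lower. Nrgn (-0.16 ± 0.47, adjusted p = 0.840), Ninj1 (0.47 ± 0.44, adjusted p = 0.478) and Nradd (-0.59 ± 0.75, adjusted p = 0.619) stayed short of the threshold.

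In the IL-25- populations, 4 genes were higher and 1 was lower in gallbladder than in small intestine, where 24.6% of all tested genes were called, 13.0% higher and 11.7% lower. Dpysl3 was higher by 3.95 ± 0.72 (adjusted p = 0.00195), Nradd by 2.87 ± 0.81 (adjusted p = 0.0208), Basp1 by 2.26 ± 0.71 (adjusted p = 0.0352) and Ninj1 by 1.42 ± 0.45 (adjusted p = 0.0332). Ddc was lower by -1.86 ± 0.34 (adjusted p = 0.00145). The Basp1 groups overlapped, and without GB-neg 1 its difference was 0.97 (adjusted p = 0.266), and the call was also lost without SI-neg 1, 2 or 3 (adjusted p 0.0713 to 0.117). The groups were apart for Dpysl3, Nradd and Ninj1 with gallbladder higher and for Ddc with gallbladder lower, against 21.8% and 21.7% of all tested genes. Without SI-neg 3 the Nradd difference was 4.29, and its call was lost without SI-neg 1 (adjusted p = 0.0769) or GB-neg 3 (0.0578). The Ninj1 call was lost without any 1 of the 6 IL-25- libraries, with adjusted p between 0.0613 and 0.0945. Nrep (0.45 ± 0.52, adjusted p = 0.584) and Nrgn (-1.43 ± 0.57, adjusted p = 0.0909) did not pass, and Nrgn passed without SI-neg 3 (adjusted p = 0.0169) or without GB-neg 3, where it stood at -2.02 (adjusted p = 0.0417).

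Whether the gate difference itself differed between the tissues was tested as an interaction, the gallbladder difference minus the small intestine difference. Of the 7 genes, 2 were higher and 2 were lower, where 9.23% of all tested genes were called, 3.63% higher and 5.6% lower. The balance over all genes depended on the scaling, with 604 higher and 932 lower calls under the scaling used throughout, against 779 and 743 under relative log expression scaling. Nrep had an interaction of 8.28 ± 0.85 (adjusted p = 0.000125) and Dpysl3 one of 4.69 ± 1.04 (adjusted p = 0.0146), and these were 9.49 and 7.20 without SI-pos 3. Basp1 had an interaction of -4.60 ± 0.90 (adjusted p = 0.00698), and -3.28 (adjusted p = 0.00817) without GB-neg 1. Ddc had one of -1.79 ± 0.47 (adjusted p = 0.0304), a call lost without either the first or the third library of SI-pos, SI-neg or GB-pos, or without GB-neg 3 (adjusted p 0.0589 to 0.0829). Nradd (-3.46 ± 1.10, adjusted p = 0.0669), Nrgn (1.27 ± 0.74, adjusted p = 0.338) and Ninj1 (-0.95 ± 0.62, adjusted p = 0.400) did not pass, and without SI-neg 3 the Nradd value was -4.84 (adjusted p = 0.0130).

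**Figure D3:**
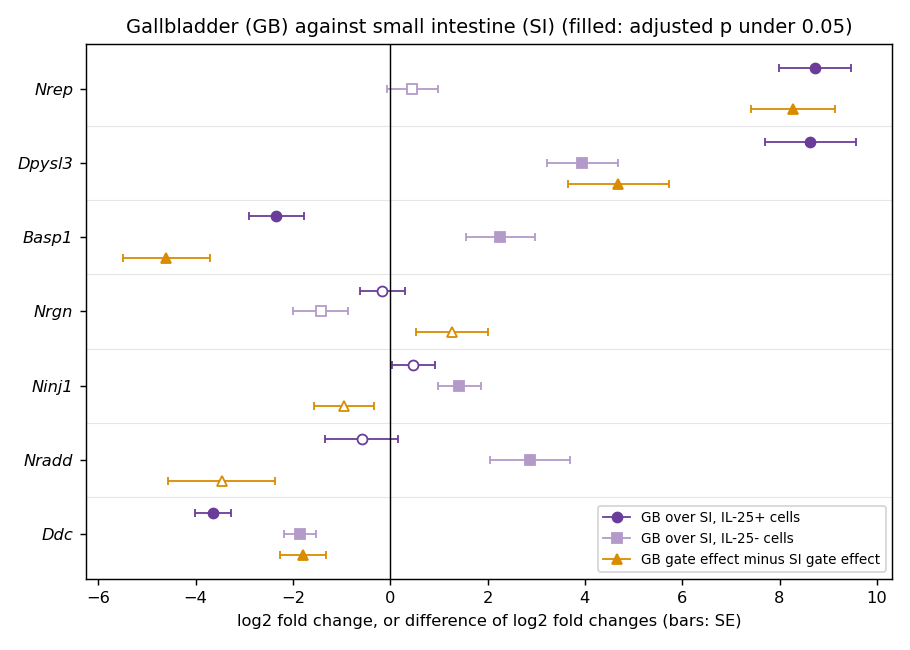
Log2 differences for the 7 tested genes, with circles for gallbladder over small intestine among IL-25+ cells, squares for the same among IL-25- cells and triangles for the interaction, bars for 1 SE and filled symbols for an adjusted p under 0.05. Nrep and Dpysl3 lie beyond 8 among IL-25+ cells, while Nrep lies at 0.45 among IL-25- cells.

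Ranked by group, Nrep was highest in gallbladder IL-25+ cells, with GB-neg and SI-neg overlapping next and SI-pos lowest. Dpysl3 was ordered GB-pos, GB-neg, SI-neg and SI-pos, high to low, with no overlap between neighbours. For Basp1 the order was SI-pos, then GB-pos, then GB-neg and SI-neg, which overlapped. Nrgn had SI-pos and GB-pos overlapping at the top and SI-neg and GB-neg overlapping at the bottom. Ninj1 was highest in GB-neg with the other 3 groups overlapping in turn, Nradd was lowest in SI-neg with the other 3 overlapping in turn, and Ddc was highest in SI-neg and lowest in GB-pos with SI-pos and GB-neg overlapping between them.

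Set per kilobase of exon so that genes can be compared with each other, mean Nrgn stood at 156 CPM per kb in GB-pos and 175 CPM per kb in SI-pos, higher than 99.1% and 98.7% of tested genes. Basp1 stood at 17.2 CPM per kb in GB-pos and 87.3 CPM per kb in SI-pos, above 86.9% and 97.4%. Nrep stood at 59.3 CPM per kb in GB-pos, above 97.2%, and at 0.139 CPM per kb in SI-pos, above 15.2%. Among these genes Nrgn was thus the most abundant per length in the IL-25+ cells of either tissue. Dpysl3 stood at 14.6 CPM per kb in GB-pos and 7.82 CPM per kb in GB-neg, and Ddc was highest in SI-neg at 18 CPM per kb.

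The genes whose levels followed the members most closely were ranked by Pearson correlation of log2 CPM over the 12 libraries, among 10244 genes with at least 10 CPM in a group. The libraries share their groups, so these values describe group patterns and carry no test. Nrep was closest to Lcp1 (r = 0.984), the actin-bundling protein plastin 2, then to the ephrin receptor Epha7 (0.971) and the sulfotransferase Chst15 (0.965). Lcp1 averaged 573 CPM in GB-pos and 39.3 CPM in GB-neg, and 6.45 CPM in SI-pos and 39.1 CPM in SI-neg. Dpysl3 was closest to Arhgef17 (0.989), a guanine nucleotide exchange factor, Sorbs3 (0.978), the adhesion adaptor vinexin, and Spaca6 (0.974).

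Basp1 was closest to Fnbp1 (0.990), a membrane-curving protein that binds formin, the glucose transporter Slc2a1 (0.989) and the mitochondrial carnitine carrier Slc25a20 (0.988). Nrgn was closest to the noncoding genes Fcnaos (0.992) and Gm26797 (0.991) and to Hmx2 (0.991), a homeobox factor. Nradd was closest to Enpp4 (0.966), Rdx (0.953), the membrane-actin linker radixin, and Hspa2 (0.951). Ninj1 was closest to the transporter Abcc4 (0.959), the VEGF receptor Flt1 (0.933) and Gm3336 (0.928), and Ddc to the phosphatase Phlpp2 (0.989), the coactivator Ppargc1a (0.985) and the coat protein Sec23a (0.984). Among the members themselves r was 0.928 for Basp1 with Nrgn, 0.854 for Nrep with Dpysl3, 0.671 for Basp1 with Nradd and -0.764 for Nrep with Ddc.

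The other genes of the same pathways were followed in 6 lists. Beside their counts, 12.4% of all tested genes were called higher and 14.4% lower in gallbladder IL-25+ cells. In small intestine IL-25+ cells the shares were 14.5% and 12.8%, and in the interaction 3.63% and 5.6%. Neither these lists nor the cell type marker lists were tested as sets. Of 11 tested genes of growth cones and neural adhesion, 6 were higher and none lower in gallbladder IL-25+ cells (median log2 difference 3.14), and 2 were higher and 2 lower in small intestine IL-25+ cells (median 1.15). L1cam, an axonal adhesion protein, averaged 749 CPM in GB-pos and 22.5 CPM in GB-neg, a difference of 5.05 ± 0.30 (adjusted p = 1.81e-07), and was also higher in small intestine IL-25+ cells (3.04 ± 0.27, adjusted p = 4.59e-06). Marcksl1, a membrane protein related in function to Basp1, was higher in IL-25+ cells by 4.15 ± 0.64 in gallbladder and 3.96 ± 0.62 in small intestine. Nfasc and Nrcam, adhesion proteins of the L1 family, were higher in gallbladder IL-25+ cells by 6.46 ± 1.07 and 6.39 ± 1.67. All 180 Nrcam reads of the GB-neg group lay in GB-neg 1, and without it the gene was at least 1663-fold higher in GB-pos, while Nfasc stood at 8.91. Gprin3, a G protein-regulated neurite protein, was lower in small intestine IL-25+ cells by -1.86 ± 0.59 (adjusted p = 0.0320), a call lost without any of SI-pos 1, 2 and 3 and SI-neg 2 and 3 (adjusted p 0.0569 to 0.123). Gprin1 (5.25 ± 1.10) and Marcks, chosen after their values were seen, completed the gallbladder calls, and the gate difference of Marcks was 1.90 ± 0.41 in gallbladder, 2.57 without GB-neg 1, and -1.40 ± 0.41 in small intestine. Gprin1 stood at 4.05 without GB-pos 2, and at a ratio of 159 (exact 95% interval 43.7 to 1315) without GB-neg 1. The small intestine call of Marcks was lost without SI-pos 1 or 3, or SI-neg 1 or 2 (adjusted p 0.0504 to 0.0874). Nfasc, L1cam and Marcks were higher in the interaction and no gene of the list was lower. The Nfasc interaction of 5.90 ± 1.28 was 8.35 without GB-neg 1 and 6.52 without SI-pos 2, and its call was lost without SI-pos 3 (adjusted p = 0.0558) and when all genes with reads entered the fit (0.0590).

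Of 17 tested collapsin response mediator, stathmin and microtubule genes, 6 were higher and none lower in gallbladder IL-25+ cells (median 1.84), and 4 were higher and 4 lower in small intestine IL-25+ cells (median -2.01). Dclk1, a microtubule kinase and tuft cell marker, averaged 7308 CPM in GB-pos and 12.7 CPM in GB-neg (9.16 ± 0.93, adjusted p = 5.48e-05, and 10.03 without GB-neg 1), and 3258 CPM in SI-pos and 40.4 CPM in SI-neg (6.33 ± 0.83, adjusted p = 0.000300). Dpysl2, the family member CRMP2, was higher in IL-25+ cells of both tissues, at 331 CPM in GB-pos and 2.34 CPM in GB-neg, and 1260 CPM in SI-pos and 38.4 CPM in SI-neg. Its difference was 7.14 ± 0.69 in gallbladder and 5.04 ± 0.62 in small intestine, or 6.13 in small intestine without SI-neg 2. It thus differed from its relative Dpysl3, which was lower in small intestine IL-25+ cells. Map1a, a microtubule-associated protein, was higher in IL-25+ cells by 7.96 ± 1.2 in gallbladder, 10.88 without GB-neg 1, and by 4.95 ± 1.05 in small intestine. Map1b, named after its values were seen, had the one call of this list in the interaction, at 6.54 ± 0.76 (adjusted p = 0.000290), or 7.20 without SI-pos 1. It averaged 235 CPM in GB-pos and 68.8 CPM in GB-neg, and 2.63 CPM in SI-pos and 71.6 CPM in SI-neg. Its gallbladder call (1.77 ± 0.50, adjusted p = 0.0210) was lost without GB-pos 1, GB-pos 2, GB-neg 2 or GB-neg 3 (adjusted p 0.0580 to 0.0769), and its small intestine difference was -4.76 ± 0.58, or -5.43 without SI-pos 1. Also chosen after their values were seen, Map2 was higher in IL-25+ cells by 4.70 ± 0.29 in gallbladder and 3.54 ± 0.27 in small intestine, and the kinase Dclk2 by 5.77 ± 1.64 in gallbladder. Without GB-neg 1 Dclk2 was at least 306-fold higher, and without GB-pos 1 its call was lost (adjusted p = 0.0638). The tubulins Tubb2a (-1.39 ± 0.42) and Tubb2b (-3.92 ± 1.22) and the microtubule destabiliser Stmn1 (-3.37 ± 1.01) were lower in small intestine IL-25+ cells. Each of these 3 calls was lost without at least 4 single libraries of the small intestine (adjusted p at most 0.105), and Tubb2b stood at -4.99 without SI-pos 1.

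Of 17 tested calmodulin genes and calmodulin targets, 5 were higher and 3 lower in gallbladder IL-25+ cells (median 0.96), and 10 were higher and none lower in small intestine IL-25+ cells (median 0.65). In the interaction 1 of the 17 was higher and 4 were lower. Camk2b, a subunit of calmodulin kinase II, averaged 327 CPM in GB-pos and 10.7 CPM in GB-neg (4.93 ± 0.29, adjusted p = 1.43e-07). Ppp3ca, the catalytic subunit of the phosphatase calcineurin, averaged 334 CPM in GB-pos and 50.0 CPM in GB-neg (2.74 ± 0.16, adjusted p = 1.43e-07). In small intestine Camkk1 and Camkk2, kinases upstream of the calmodulin kinases, were higher in IL-25+ cells by 5.47 ± 0.92 and 4.10 ± 0.50, and Camkk1 by 7.20 without SI-neg 2. Chosen after their values were seen, Calm2 and Calm3 were the other genes higher in gallbladder IL-25+ cells (0.96 ± 0.16 and 1.07 ± 0.20). The genes lower there were Prkca (-2.30 ± 0.21), Camk4 (-1.82 ± 0.54) and Ppp3r1 (-0.82 ± 0.23), which encode 2 kinases and the calcineurin regulatory subunit. The Camk4 call was lost without GB-pos 1, GB-pos 3 or GB-neg 3 and the Ppp3r1 call without GB-pos 1 (adjusted p 0.0631 to 0.113). The kinase Prkcb, which phosphorylates neurogranin in neurons, was higher in IL-25+ cells by 6.79 ± 1.22 in gallbladder and 7.99 ± 1.37 in small intestine. Without GB-neg 1 the Prkcb ratio in gallbladder was 1873 (exact 95% interval 336 to 74018), with 1 read left in GB-neg. Without SI-neg 2 its ratio in small intestine was 983 (176 to 38845), and without SI-pos 3 its difference there was 7.28.

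Of 8 tested neurotrophin and ninjurin genes, 2 were higher and 1 lower in gallbladder IL-25+ cells (median -0.16), and 1 was higher and 3 were lower in small intestine IL-25+ cells (median -2.70, and -1.32 with genes at 0 set to their bound). Sort1, the sorting receptor sortilin, was higher in IL-25+ cells by 2.63 ± 0.22 in gallbladder and 1.22 ± 0.21 in small intestine. Ntrk2, the BDNF receptor TrkB, averaged 20 CPM in GB-pos and 0.0702 CPM in GB-neg (7.85 ± 1.30, adjusted p = 0.000630), and GB-neg 1 held all 15 reads of its group. Without it Ntrk2 was at least 426-fold higher. Maged1 and Bex3, partners of the receptor Ngfr, were lower in small intestine IL-25+ cells by -3.73 ± 0.45 and -3.05 ± 0.34, and Maged1 by -4.69 without SI-pos 1. The neurotrophin Bdnf was also called lower in small intestine. In the interaction 4 genes of this list, Ntrk2, Bex3, Maged1 and Sort1, were higher and 1 was lower. Of 7 tested ubiquitin hydrolase and ubiquitin genes, none was called in gallbladder (median 0.20), and 2 were higher and none lower in small intestine IL-25+ cells (median -0.20), among them the ubiquitin gene Ubb (1.63 ± 0.33). None of these 7 was higher and 1 was lower in the interaction.

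Of 13 tested monoamine genes, none was higher in IL-25+ cells in either tissue, 2 were lower in gallbladder (median -0.62) and 3 were lower in small intestine (median -1.63). None of the 13 was called in the interaction. Tph1, the tryptophan hydroxylase of enteroendocrine cells, averaged 0.928 CPM in SI-pos and 141 CPM in SI-neg (-7.24 ± 1.67, adjusted p = 0.0103), and it stood at -8.11 without SI-pos 1 and lost its call without SI-pos 3 (adjusted p = 0.0545). Slc18a1, the vesicular monoamine transporter, was lower in small intestine IL-25+ cells by -3.35 ± 1.04 (adjusted p = 0.0341). The Slc18a1 call was lost without any 1 small intestine library or GB-neg 2 (adjusted p 0.0503 to 0.128), and without SI-pos 2 its difference was -3.97. In gallbladder the oxidases Maoa (-5.32 ± 0.93) and Maob (-3.95 ± 1.31), named after their values were seen, were lower in IL-25+ cells. Without GB-neg 1 Maoa stood at -3.91 and Maob at -1.09 (adjusted p = 0.501), and Maoa stood at -5.97 without GB-pos 2. The Maob call was also lost without each GB-pos library, SI-pos 3, SI-neg 1 or SI-neg 2 (adjusted p 0.0523 to 0.129).

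**Figure D4:**
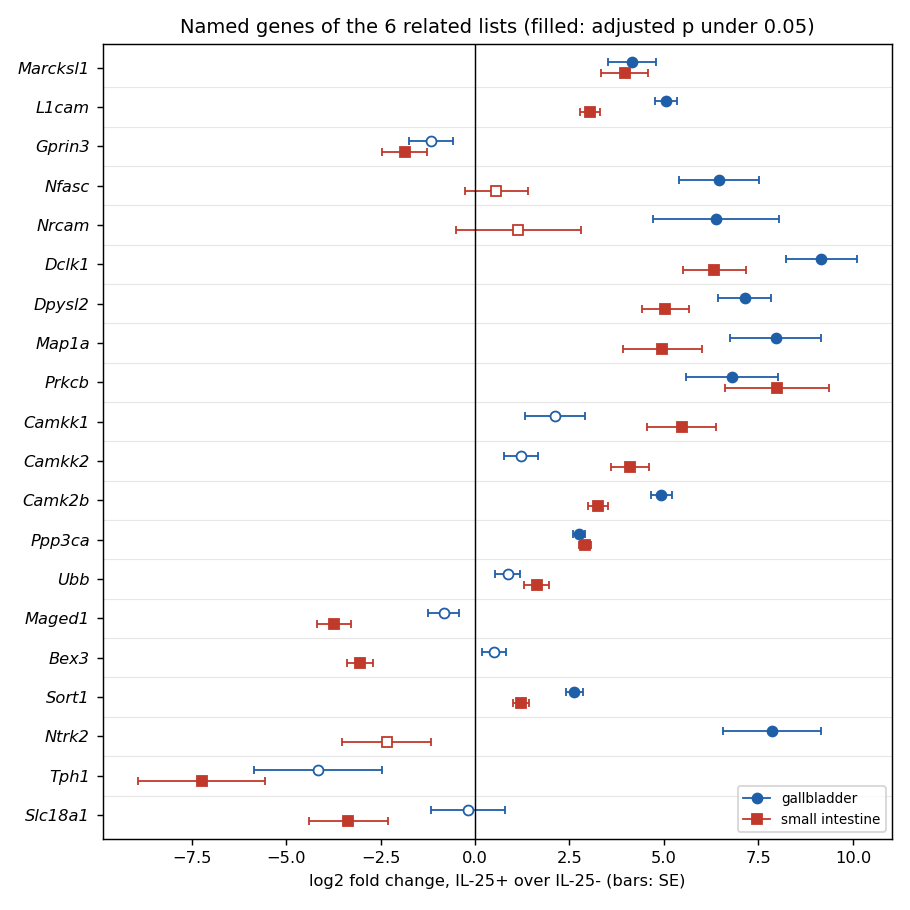
Log2 difference between IL-25+ and IL-25- cells for 20 genes of the 6 pathway lists that the naming rule selected, grouped by list, with gallbladder as circles, small intestine as squares, bars for 1 SE and filled symbols for an adjusted p under 0.05. L1cam, Dclk1, Dpysl2, Map1a and Sort1 lie right of 0 in both tissues, whereas Maged1 and Bex3 lie left of 0 in small intestine.

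Neuron markers were read beside these results because the genes are best known from neurons. The 10 enteric neuron markers summed to 180 to 230 CPM in GB-pos, against 3.60 to 24.9 CPM in GB-neg, and to 22.7 to 28.6 CPM in SI-pos, against 85.9 to 161 CPM in SI-neg. Of the 7 tested, Nefl and Syt1 were higher in GB-pos, and Nefl, Prph and Syt1 were higher and Snap25 lower in SI-pos. Most of the GB-pos sum came from Nefl and Syt1, which averaged 128 and 71.8 CPM there. Glial markers summed to 9.56 to 19.8 CPM in GB-pos, against 32.4 to 37.9 CPM in GB-neg, where most of the sum was S100b. In any small intestine library the glial markers summed to at most 1.46 CPM. Of the 4 tested, S100b was called lower in GB-pos and none was called higher. The median gallbladder log2 difference of these 4 was 0.81. The part of neurons or glia in the levels of the 8 genes was not tested.

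**Figure D5:**
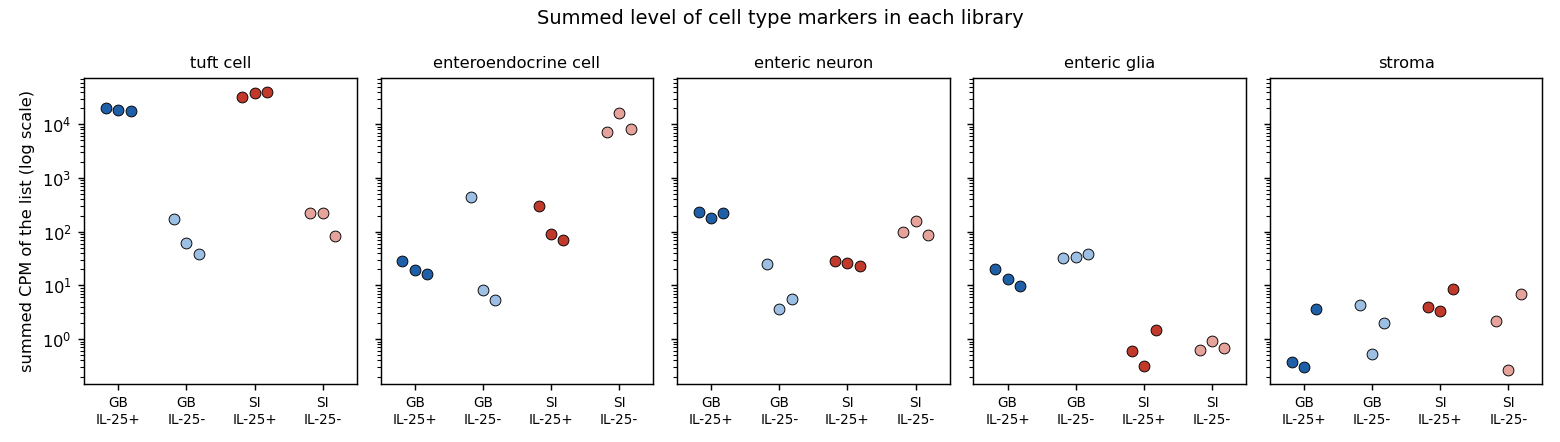
Summed level, in CPM on a log axis, of the tuft cell, enteroendocrine, enteric neuron, enteric glia and stroma markers in each library, with gallbladder IL-25+, gallbladder IL-25-, small intestine IL-25+ and small intestine IL-25- from left to right. Tuft markers lie at or above 18012 CPM in IL-25+ libraries and stay at or below 220 CPM in IL-25- libraries, and enteroendocrine markers reach 7168 to 16575 CPM in small intestine IL-25- libraries.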

How the data were processed

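Epithelial cells were sorted on a MoFlo XDP instrument and sequenced as single-end 50 bp reads on a HiSeq 4000 after Nextera XT preparation, per the labels' protocols. STAR 2.7.2b, GRCm38 and DESeq2 1.26 stand in the submitters' processing notes, and the counter, its strand setting and its annotation are not given in the sources used here. The authors deposited raw counts per Ensembl gene in 1 table of 43432 genes, and 11 further columns with no matching sample here were not used. Symbols, coordinates and exon lengths came from GENCODE M21 (42462 IDs matched, 970 did not).

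All differences were computed here with edgeR 4.0.16 (R 4.3.3) by a robust quasi-likelihood fit over all 12 libraries with a mean per group, TMM scaling and a minimum count of 10 for testing (16636 genes), with Benjamini-Hochberg adjustment over all of them and a threshold of 0.05. Standard errors are the log2 difference divided by the square root of F. CPM values use TMM-scaled totals. Ratios of low counts carry exact 95% intervals, and these and the limit of 3 reads for a count of 0 cover counting error only. Replicates differed beyond sampling noise (chi-square per degree of freedom at least 49.2). The script was tested on simulated counts.

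The genes and lists were chosen with earlier results of these data known. Named besides the 8 genes were the 3 genes with the highest correlation to each, and per list and tissue the 3 called genes with the largest difference between the gates and at least 10 CPM in the higher group. A few genes that this rule or the lists hold are not reported here, and they stay in the list counts. Alternatives were RLE scaling, DESeq2 1.42.0, limma-voom (limma 3.58.1), other filters, a replicate block, fits restricted to the groups of a comparison, and fits without each single library.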

Additional observations from a re-analysis of the deposited data

Results flagged for a closer look

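In 4 of the 7 tested genes the difference between IL-25+ and IL-25- cells differed between gallbladder and small intestine, by the interaction test in the edgeR fit over all 12 libraries, in which 9.23% of all tested genes were called. Nrep had an interaction of 8.28, with means of 232 ± 13.5 CPM in GB-pos and 5.31 ± 1.76 CPM in GB-neg, and of 0.544 ± 0.567 CPM in SI-pos and 3.89 ± 1.95 CPM in SI-neg (SD, 3 libraries each). Dpysl3 had one of 4.69, with 96.4 ± 28.1 CPM in GB-pos and 51.7 ± 17.8 CPM in GB-neg, and 0.241 ± 0.355 CPM in SI-pos and 3.35 ± 1.93 CPM in SI-neg. Basp1 had one of -4.60, with 34.6 ± 12.2 CPM in GB-pos and 0.767 ± 0.804 CPM in GB-neg, and 175 ± 29.6 CPM in SI-pos and 0.171 ± 0.0663 CPM in SI-neg. Ddc had one of -1.79, with 2.31 ± 0.90 CPM in GB-pos and 22.1 ± 6.0 CPM in GB-neg, and 28.8 ± 4.32 CPM in SI-pos and 80.1 ± 22.7 CPM in SI-neg. The Ddc call was lost under 11 of 20 alternatives.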

How the results depend on the processing

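Over 22 alternative settings, 23 of the 35 differences of the 7 tested genes kept their direction and their side of the threshold throughout, and of 741 recomputed values 695 did so, 33 lost the call, 7 gained it and 6 turned sign. The sign changes were in differences near 0. Ninj1 in small intestine stood at 0.00714 with the replicate block, 0.0032 with the block nested in tissue, 0.04 without SI-pos 2 and 0.14 without SI-neg 1, over a leave-one-out range of -0.083 to 0.14. Nrgn among IL-25+ cells stood at 0.0057 without SI-pos 3 and 0.0180 without GB-pos 2, over a leave-one-out range of -0.44 to 0.02. The members called among IL-25- cells numbered 3, against 5, with no filter, with the compared groups alone, and without both SI-neg 3 and GB-neg 1. They numbered 2 to 5 when single libraries were left out, and 6 under DESeq2, where Nrgn was called as well (-1.47, adjusted p = 0.0350). Basp1 among IL-25- cells stood at 0.68 (adjusted p = 0.519) without both SI-neg 3 and GB-neg 1. Its call was also lost under limma-voom (adjusted p = 0.234), with no filter (0.0910) and with the replicate block (0.0613). Among IL-25- cells the Ninj1 call was lost with no filter (adjusted p = 0.0887) and the Nradd call with the compared groups alone (0.0536). The Ddc interaction missed the threshold under 11 of 20 alternatives, with adjusted p at most 0.112, and the small intestine calls of Nrep and Dpysl3 did so with the compared groups alone (adjusted p 0.0538 and 0.0530). Ninj1 passed it in gallbladder under limma-voom (-1.10, adjusted p = 0.0493). The Dpysl3 interaction missed it with no filter (adjusted p = 0.0559). Over all genes, limma-voom called 6837 in small intestine, against 4529, and DESeq2 called 2364 in the interaction, against 1536, split into 1221 higher and 1143 lower. RLE scaling moved the median of all genes by -0.12 in small intestine, 0.11 among IL-25+ cells and 0.16 in the interaction. It gave 2119 higher and 2513 lower calls in small intestine, against 2405 and 2124, and 2005 higher and 1885 lower among IL-25+ cells, against 1753 and 2185. Leaving out single libraries gave 3040 to 4774 calls in small intestine, 3525 to 4469 in gallbladder, 2740 to 4157 among IL-25+ cells, 3042 to 4233 among IL-25- cells and 1050 to 1566 in the interaction. SI-pos 3 moved Nrep and Dpysl3 most, SI-neg 3 Nradd and GB-neg 1 Basp1. The 70 differences of list genes gave 1508 values, of which 117 lost the call and none turned sign. The alternative without mitochondrially encoded genes was chosen after seeing the data. The low counts of Nrep and Dpysl3 in SI-pos and of Basp1 and Nrgn in IL-25- cells limit the precision of their differences.

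With the replicate number as a block, 4254 genes were called in small intestine, 4074 in gallbladder, 3540 among IL-25+ cells, 3796 among IL-25- cells and 1340 in the interaction, and with the block nested in tissue 4147 in small intestine and 3975 in gallbladder. The deviations of same-numbered libraries correlated at 0.026, -0.002 and -0.028 in small intestine and 0.094, 0.019 and 0.162 in gallbladder. The labels do not say whether same-numbered libraries share a mouse, and these values cannot decide it.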

Other observations

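Some genes on the enteric neuron marker list were themselves higher in IL-25+ cells. These were chosen after their values were seen. Syt1, a calcium sensor of vesicle release, averaged 71.8 ± 3.75 CPM in GB-pos and 6.03 ± 3.12 CPM in GB-neg, and 2.67 ± 1.14 CPM in SI-pos and 0.167 ± 0.0289 CPM in SI-neg (SD, 3 libraries each). Its log2 difference between the gates was 3.57 ± 0.45 in gallbladder (adjusted p = 7.31e-05) and 3.98 ± 0.51 in small intestine (adjusted p = 8.99e-05) in the edgeR fit. Nefl, the light neurofilament chain, averaged 128 ± 33.5 CPM in GB-pos and 0.563 ± 0.947 CPM in GB-neg, and 14 ± 4.89 CPM in SI-pos and 0.931 ± 0.579 CPM in SI-neg. Without GB-neg 1 the Nefl ratio in gallbladder was 8503 (exact 95% interval 1526 to 335857), with 1 read left in GB-neg. In small intestine the Nefl difference of 3.89 ± 1.10 (adjusted p = 0.0247) lost its call without SI-pos 1, SI-pos 2, SI-neg 1 or SI-neg 2 (adjusted p 0.0610 to 0.0940) and was 4.54 without SI-neg 3. Prph, another neuronal filament protein, had 2 reads over GB-pos and none over GB-neg, and 485 reads over SI-pos and 12 over SI-neg (5.70 ± 1.58, adjusted p = 0.0206). The Prph call was lost without SI-pos 2, SI-pos 3 or SI-neg 2 (adjusted p 0.0616 to 0.0664), and without SI-neg 1 the ratio was 221 (exact 95% interval 60.8 to 1830), while without SI-neg 3 the difference was 5.11. Snap25, a core part of the release machinery, went the other way in small intestine, at 0.986 ± 0.409 CPM in SI-pos and 90.2 ± 42.2 CPM in SI-neg (-6.51 ± 1.64, adjusted p = 0.0151), a call lost without any 1 SI-pos library (adjusted p 0.0612 to 0.0720).

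Bdnf, the neurotrophin that binds Ntrk2, averaged 6.89 ± 2.28 CPM in GB-pos and 15.4 ± 1.71 CPM in GB-neg, and had 1 read over SI-pos and 39 reads over SI-neg. In small intestine Bdnf was 28.8-fold lower in SI-pos (exact 95% interval 4.87 to 1166). The ratio was 18.8 without SI-pos 1 and 19.4 without SI-pos 2, and without SI-pos 3, which held the 1 read, Bdnf was at least 6.49-fold lower. Its call was lost without SI-pos 1, SI-pos 2, SI-neg 2 or SI-neg 3 (adjusted p 0.0613 to 0.0894). S100b averaged 6.65 ± 4.33 CPM in GB-pos and 30.2 ± 3.51 CPM in GB-neg (-2.18 ± 0.64, adjusted p = 0.0221). It stood at -2.87 without GB-pos 1 and lost its call without GB-pos 2, GB-pos 3, GB-neg 2 or GB-neg 3 (adjusted p 0.0571 to 0.0696).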
